A study of Homo sapiens with 60 samples.

Results

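Banhasasim-tang is a herbal mixture of East Asian medicine, traditionally prepared from Pinellia tuber, ginger, Scutellaria and Coptis with ginseng, licorice and jujube, and used for complaints of the stomach. The labels give no composition for the extract used here. Its high dose was compared with vehicle in 6 of the 60 libraries of the series, 3 per group, and the libraries were chosen by their labels alone. The cells were A549, a human lung adenocarcinoma line with epithelial features. They were cultured for 24 h with a lyophilised hot-water extract of Banhasasim-tang at 500 µg/mL or with DMSO, the solvent, and messenger RNA was sequenced. The sample labels give 0.1% DMSO for the vehicle, the series text gives 2%, and no label names DMSO in the extract groups. Banhasasim-tang at 20 and 100 µg/mL, and the water extract of a second mixture, Yijung-tang, at 500 µg/mL, had 3 libraries each and are used for comparison. The Banhasasim-tang and Yijung-tang libraries carry one set number and the vehicle libraries another, so set, solvent and extract cannot be told apart in a comparison with vehicle. The comparison of the high with the low dose of Banhasasim-tang stays within one set. The labels do not say that replicates came from separate cultures, so the p-values measure the spread between libraries, which may be technical.

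Epithelial cells of the airway answer bacterial products, interleukin-1 and tumour necrosis factor through NF-kB, a family of transcription factors that induces chemokines, complement factors and its own inhibitors. Chemokines are secreted proteins that draw leukocytes to a tissue. The aryl hydrocarbon receptor, a sensor of planar aromatic compounds, many of plant origin, induces cytochrome P450 enzymes in the same cells. NR4A genes encode orphan nuclear receptors that are induced rapidly by growth factors and cyclic AMP.

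The high-dose libraries held between 18726650 and 25568999 expected counts and the vehicle libraries between 18894726 and 26324262. The share of counts from mitochondrially encoded genes was 8.21% to 9.01% with the extract and 7.91% to 8.54% with vehicle. All 11 epithelial markers exceeded 1 CPM, a count scaled to the size of its library, and summed to 17570 to 18260 CPM with the extract and 18750 to 19420 CPM with vehicle, and CDKN2A, whose locus is deleted in A549 cells, had 0 counts in all 6 libraries. Of 7 alveolar surfactant genes, 1 (NAPSA) exceeded 1 CPM, and only in vehicle library 3, at 1.75 CPM. Markers of fibroblasts summed to 30.4 to 31.4 CPM in high-dose libraries and 35.1 to 36.5 CPM in vehicle libraries, from COL1A1 and COL3A1, with DCN at 0. Markers of blood cells, of which CD14 and CD68 exceeded 1 CPM and CD3E and HBB were at 0, summed to 8.995 to 12.6 CPM with the extract and 6.56 to 8.87 CPM with vehicle.

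Few genes changed at 500 µg/mL. Of 17268 genes tested, 32 passed an adjusted p of 0.05 against vehicle by edgeR's quasi-likelihood test, adjusted by Benjamini and Hochberg (0.185%). Of these, 15 were higher (0.0869%) and 17 lower (0.0984%) with the extract. The higher genes were led by secreted inflammatory proteins, and the lower genes included 2 of the 3 NR4A receptors and the imprinted RNA H19. Changes were small, with an absolute log2 fold change between 0.23 and 2.40, apart from the pseudogene AL157400.5, which had few counts, and a median of 0.61 over all 32. A change of at least 2-fold was seen for 5 genes, and all 5 were higher. The 3 high-dose libraries did not overlap the 3 vehicle libraries for any of the 32 genes. Such a separation was also seen in 17.3% of all genes tested, with 7.9% higher and 9.35% lower. An unadjusted p under 0.05 was reached by 789 genes, a smaller share of all genes tested than the 0.05 that uniform p-values would give. With 1 library left out, 15 genes passed without vehicle library 1 or high-dose library 3, 17 without vehicle library 2 or high-dose library 1, 18 without high-dose library 2 and 25 without vehicle library 3. The median log2 fold change over all genes was -0.01.

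**Figure D1:**
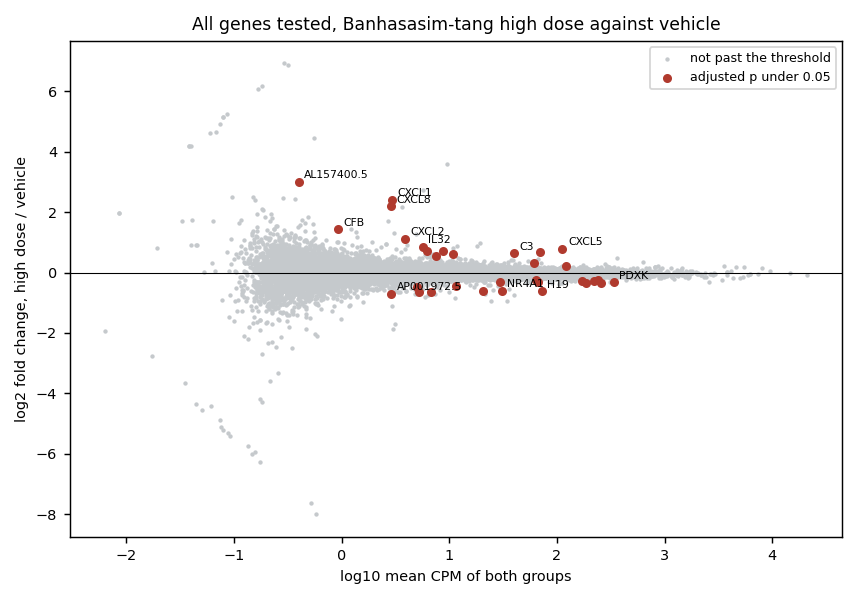
Log2 fold change between high-dose and vehicle libraries (y axis) against the log10 mean CPM of both groups (x axis) for 17251 genes; 17 genes at 0 CPM in both groups are not drawn. The 32 genes past the threshold are in red, with 12 of them named, and the higher ones reach larger changes than the lower ones.

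The clearest change was in CXC chemokines that attract neutrophils through the receptor CXCR2. CXCL5 (ENSG00000163735) lies on chromosome 4 at 73995642 to 73998779 of GRCh38. Its level was 139.8, 149 and 138 CPM in high-dose libraries, against 81.3, 83.5 and 83.5 CPM in vehicle libraries. The groups were far apart relative to the spread within either, with a log2 fold change of 0.78 ± 0.05 (SE; edgeR, adjusted p = 1.06e-14). CXCL8 (ENSG00000169429), which encodes interleukin-8, lies on the same chromosome at 73740506 to 73743716. It reached 4.70, 4.27 and 5.19 CPM with the extract and 1.03, 1.11 and 0.943 CPM with vehicle, a log2 fold change of 2.19 ± 0.21 (edgeR, adjusted p = 2.64e-09). CXCL1 (ENSG00000163739; chromosome 4, 73869393 to 73871242) was at 5.27, 4.75 and 4.88 CPM in high-dose libraries and 0.723, 0.886 and 1.26 CPM in vehicle libraries. Its log2 fold change of 2.40 ± 0.23 had the same adjusted p of 2.64e-09 (edgeR). All 3 genes passed the threshold in each of 15 alternative analyses.

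CXCL2 (ENSG00000081041; chromosome 4, 74097035 to 74099293) was at 5.63, 5.63 and 4.77 CPM with the extract and 1.94, 2.695 and 2.83 CPM with vehicle. The log2 fold change was 1.11 ± 0.20 (edgeR, adjusted p = 0.0016), but the call was lost without vehicle library 1 (adjusted p = 0.0764). Of the 19 groups of 3 libraries in the series, vehicle had the lowest mean of CXCL2, below all 18 extract groups. CXCL3, the neighbour of CXCL1 and CXCL2, lay just outside the threshold, with 2.89, 2.91 and 3.13 CPM in high-dose libraries and 1.49, 1.48 and 2.04 CPM in vehicle libraries (log2 fold change 0.85 ± 0.20; edgeR, adjusted p = 0.0561). CXCL1, CXCL2 and CXCL3 are close paralogs, and the split of reads between them rests on the authors' estimation of counts. In bulk RNA, a larger number of cells making a transcript and more of it per cell cannot be told apart. The blood-cell marker sum given above was also higher with the extract, and its part in these changes was not tested.

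The promoters of these 5 genes are shown because the genes lie in one cluster and shared a direction. Each line gives the 120 bases upstream of the RefSeq transcription start (GRCh38.p14), 5′ to 3′ on the strand of the gene, with the NF-kB motif GGAATTTCC in capitals. CXCL5 is taken from chr4:73998678-73998797 (minus strand), CXCL8 from chr4:73740449-73740568 (plus), CXCL1 from chr4:73869273-73869392 (plus), CXCL2 from chr4:74099196-74099315 (minus) and CXCL3 from chr4:74038690-74038809 (minus).
CXCL5: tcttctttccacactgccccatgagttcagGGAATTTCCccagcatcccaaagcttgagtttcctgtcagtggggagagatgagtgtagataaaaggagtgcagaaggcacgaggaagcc
CXCL8: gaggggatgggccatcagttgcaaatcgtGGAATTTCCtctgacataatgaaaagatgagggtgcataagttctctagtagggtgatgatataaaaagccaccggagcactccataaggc
CXCL1: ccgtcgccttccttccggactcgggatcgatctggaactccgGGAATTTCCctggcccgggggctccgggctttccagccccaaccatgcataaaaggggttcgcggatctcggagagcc
CXCL2: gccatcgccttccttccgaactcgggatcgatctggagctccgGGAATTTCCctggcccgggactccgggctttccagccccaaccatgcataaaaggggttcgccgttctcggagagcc
CXCL3: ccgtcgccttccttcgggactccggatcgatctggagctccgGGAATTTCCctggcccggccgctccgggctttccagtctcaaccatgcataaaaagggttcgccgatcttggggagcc

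The motif begins at base -90 from the start in CXCL5, -91 in CXCL8, -78 in CXCL1, -77 in CXCL2 and -78 in CXCL3. It was chosen after the changes were known and was searched on both strands of the 250 bases upstream of each start, where 145 of 35116 RefSeq promoters hold it (0.413%). A RefSeq promoter was matched for 22 of the 32 genes, 11 of which were higher and 11 lower, and 4 hold the motif, all of them the chemokines above. The promoters of CXCL1, CXCL2 and CXCL3 printed above are nearly alike, so their matches are not independent of each other. Other forms of the NF-kB site were not searched, so the remaining genes may hold them. A match of letters is a description and not evidence of binding. The motif GCGTG, the core of aryl hydrocarbon receptor sites, is present in 32.2% of all promoters. Of the 32 genes, only the 22 with a matched promoter could be searched for it. Among these, GCGTG is present in a promoter of CXCL5, NR4A1, LBH, PDXK, GREM1, IL32, ETS2, NR4A3, CD24 and F2RL1. Some genes, such as IL32, ETS2 and CD24, were searched in several promoters. The 32.2% is a share of promoters and not of genes, so it cannot be set directly beside this list. CYP1B1, a called target of this receptor, is not in the list, and whether its promoter was matched is not given.

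**Figure D2:**
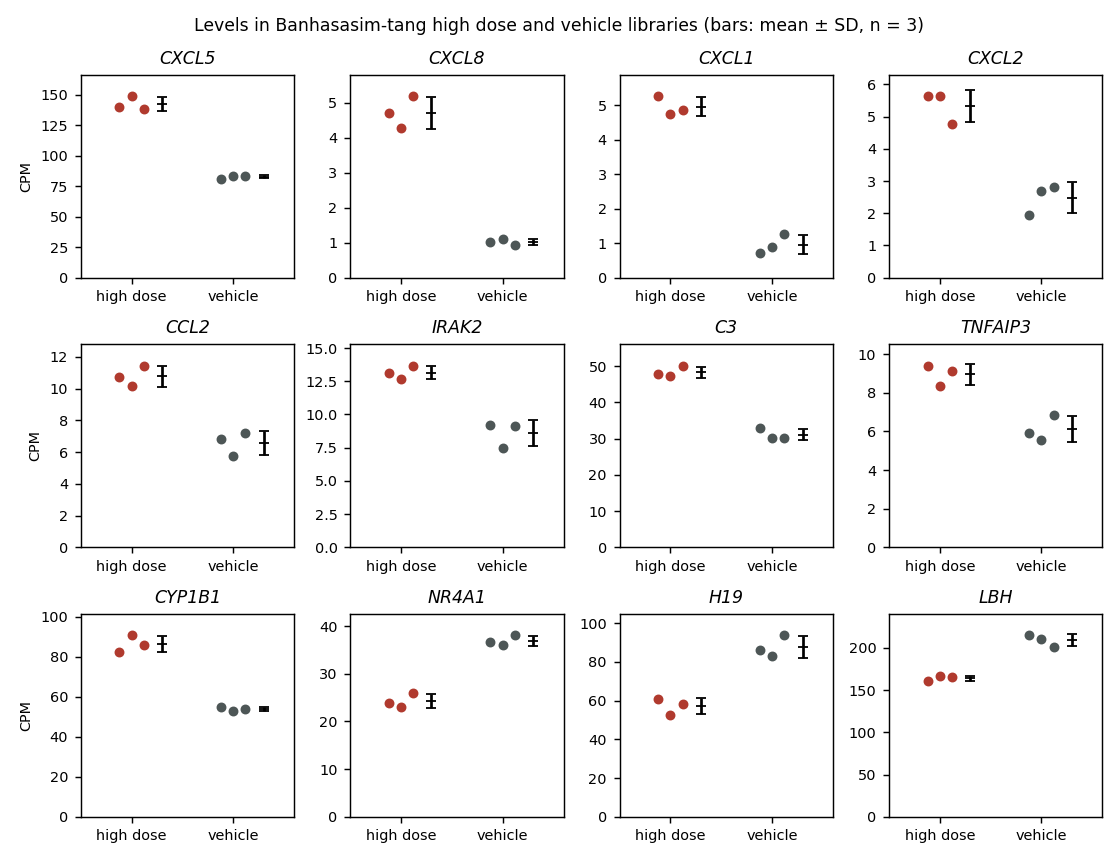
CPM (y axis) of 12 genes in the 3 high-dose libraries (red, left) and the 3 vehicle libraries (grey, right) of each panel, with mean ± SD at the right of the points. High-dose libraries lie above vehicle libraries for the chemokines, IRAK2, C3, TNFAIP3 and CYP1B1, and below them for NR4A1, H19 and LBH.

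Other secreted or signalling proteins of inflammation were also higher. CCL2, a chemokine for monocytes, was at 10.7, 10.1 and 11.4 CPM with the extract and 6.81, 5.76 and 7.17 CPM with vehicle (log2 fold change 0.72 ± 0.14; edgeR, adjusted p = 0.00914). The call was lost without vehicle library 2 (adjusted p = 0.207) and without high-dose library 3 (0.0995). IL32, a cytokine, reached 6.56, 6.99 and 8.47 CPM in high-dose libraries and 4.23, 3.69 and 4.35 CPM in vehicle libraries (log2 fold change 0.85 ± 0.16; edgeR, adjusted p = 0.00589), and the same libraries decided it (0.102 and 0.127). IRAK2, a kinase of interleukin-1 and Toll-like receptor signalling, was at 13.1, 12.7 and 13.7 CPM with the extract and 9.17, 7.46 and 9.16 CPM with vehicle. Its log2 fold change of 0.62 ± 0.09 (edgeR, adjusted p = 5.72e-05) passed in all 15 alternatives. TNFAIP3 encodes A20, an inhibitor of NF-kB signalling that is itself an NF-kB target, and stood at 9.40, 8.34 and 9.12 CPM with the extract and 5.90, 5.57 and 6.86 CPM with vehicle. Its log2 fold change was 0.56 ± 0.12 (edgeR, adjusted p = 0.0324), and it lost the threshold without vehicle library 1 (0.222) or 2 (0.326) and without high-dose library 1 (0.17), 2 (0.0671) or 3 (0.18).

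Over the list of NF-kB and inflammatory genes, 20 of 22 were tested, 5 were higher, 0 lower and 15 did not pass (edgeR, adjusted p of 0.05). The 5 were CXCL5, CXCL8, CXCL1, CXCL2 and TNFAIP3. The log2 fold change was positive for 19 of the 20, with a median of 0.24, against -0.01 over all genes tested. Among the members that did not pass, RELB, an NF-kB subunit, averaged 18.5 CPM with the extract and 14.3 CPM with vehicle (log2 fold change 0.38 ± 0.11; adjusted p = 0.202). BIRC3, an inhibitor of apoptosis, averaged 48.7 and 39.3 CPM in high-dose and vehicle libraries (log2 fold change 0.31 ± 0.09; adjusted p = 0.194). NFKBIA, the inhibitor of NF-kB that is resynthesised after activation, averaged 53.8 CPM with the extract and 46.0 CPM with vehicle (adjusted p = 0.97). RELA, the main activating subunit, averaged 70.0 CPM with the extract and 70.7 CPM with vehicle (adjusted p = 1). How many members passed depended on the fit, with 3 without vehicle library 1, 8 in DESeq2, 11 in a fit of the 6 libraries alone and 12 with a covariate for the balance of long and short transcripts.

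Complement genes changed in part. C3, the central complement protein, was at 47.8, 47.2 and 50.1 CPM in high-dose libraries and 32.9, 30.3 and 30.2 CPM in vehicle libraries (log2 fold change 0.64 ± 0.14; edgeR, adjusted p = 0.031). CFB, the factor B of the alternative pathway, was at 1.19, 1.08 and 1.79 CPM with the extract and 0.533, 0.332 and 0.681 CPM with vehicle (log2 fold change 1.43 ± 0.31; edgeR, adjusted p = 0.0266). The groups did not overlap for either gene, but neither call was firm. The C3 call was lost without any 1 of the 6 libraries, with adjusted p between 0.104 and 0.237. That of CFB was lost without vehicle library 1 (0.143) or 2 (0.37) and high-dose library 1 (0.0528) or 3 (0.347). Of 13 complement and fibrinogen genes tested these 2 passed and 11 did not, with a median log2 fold change of 0.02. C1S, a protease of the classical pathway, averaged 68.4 CPM with the extract and 58.9 CPM with vehicle (adjusted p = 0.0892), and FGA, the fibrinogen alpha chain, 130.1 CPM with the extract and 147 CPM with vehicle (adjusted p = 0.818). The C1S result depended on the fit: it passed in DESeq2, with RLE scaling and in the fit of the 6 libraries alone, among other alternatives.

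Among targets of the aryl hydrocarbon receptor, CYP1B1, a P450 enzyme of oestrogen and xenobiotic metabolism (ENSG00000138061; chromosome 2, 38066973 to 38109902), was higher. It was at 82.5, 90.8 and 85.9 CPM with the extract and 55.0, 52.7 and 53.9 CPM with vehicle, with a log2 fold change of 0.68 ± 0.10 (edgeR, adjusted p = 0.000151) that passed in all 15 alternatives. The related CYP1A1, the most inducible target in many cells, was at 1.497, 1.597 and 1.79 CPM with the extract and 0.914, 1.11 and 0.524 CPM with vehicle. It missed the threshold (log2 fold change 0.90 ± 0.22; edgeR, adjusted p = 0.0587) but passed in 3 of 15 alternatives, at adjusted p 0.0101 with each library's transcript length balance as a covariate (the length covariate), 0.0299 when library 1 of another extract group, Citri medium, left the fit, and 0.0425 without vehicle library 2. Vehicle had the lowest mean of the 19 groups. TIPARP, whose product restrains the receptor, averaged 44.1 and 33.4 CPM in high-dose and vehicle libraries (adjusted p = 0.186). TIPARP passed with the length covariate, without Citri medium library 1 and in the fit of the 6 libraries alone. Of 8 targets tested, 1 passed, and the median log2 fold change was 0.22. NQO1, a reductase induced by NRF2 and by this receptor, averaged 1620 CPM with the extract and 1603 CPM with vehicle (log2 fold change 0.02 ± 0.11; adjusted p = 1).

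GREM1, a secreted antagonist of bone morphogenetic proteins, was higher, at 7.28, 7.95 and 7.74 CPM with the extract and 4.76, 4.10 and 5.13 CPM with vehicle (log2 fold change 0.72 ± 0.12; edgeR, adjusted p = 0.00106). It passed in all 15 alternatives, but vehicle had the lowest GREM1 mean of all 19 groups. In the fit of all 57 libraries, none of the other 13 tested genes of this pathway passed. Of those 13, 11 had a negative fold change. ID2 and ID3 passed with the length covariate and in the fit of the 6 libraries alone. ID4, an inhibitor of differentiation induced by these ligands, averaged 6.77 CPM with the extract and 8.88 CPM with vehicle (log2 fold change -0.39 ± 0.12; adjusted p = 0.392). SEMA4B, a membrane semaphorin, averaged 68.6 CPM with the extract and 54.7 CPM with vehicle (log2 fold change 0.33 ± 0.07; edgeR, adjusted p = 0.0202); here too vehicle was the lowest of 19 groups. That call was lost without vehicle library 1 (0.209) or 2 (0.084) and high-dose library 2 (0.177) or 3 (0.128). F2RL1, the protease-activated receptor PAR2, averaged 130.1 CPM with the extract and 110.7 CPM with vehicle (log2 fold change 0.23 ± 0.05; adjusted p = 0.037), and lost the threshold without any 1 of the 6 libraries (0.0871 to 0.296).

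The call with the largest fitted change rests on few counts. AL157400.5, annotated as a processed pseudogene, had 0.826, 0.838 and 0.458 CPM in high-dose libraries and 0.0761, 0.0369 and 0.157 CPM in vehicle libraries (edgeR, adjusted p = 0.0243). Its level was as high at the low dose (0.832 CPM) and the medium dose (0.654 CPM), and it may share reads with its parent gene. The call was lost without vehicle library 1 (0.192) or 2 (0.277) and without high-dose library 1 (0.104) or 2 (0.182).

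Among the 17 genes that were lower, NR4A1 (ENSG00000123358; chromosome 12, 52022832 to 52059507) had the smallest p. Its level was 24.0, 23.0 and 26.0 CPM in high-dose libraries, against 36.6, 36.0 and 38.1 CPM in vehicle libraries (log2 fold change -0.60 ± 0.07; edgeR, adjusted p = 2.11e-06). NR4A3 stood at 5.52, 5.27 and 5.26 CPM with the extract and 8.83, 8.68 and 7.49 CPM with vehicle (log2 fold change -0.64 ± 0.14; edgeR, adjusted p = 0.0289). The third receptor, NR4A2, averaged 2.78 CPM with the extract and 3.63 CPM with vehicle and did not pass (log2 fold change -0.39 ± 0.16; adjusted p = 0.818). NR4A1 passed in all 15 alternatives. NR4A3 passed without vehicle library 3 and was lost without any 1 of the other 5 libraries (adjusted p 0.104 to 0.209). The classical immediate-early genes did not pass. FOS, an AP-1 subunit, averaged 2.99 CPM with the extract and 3.05 CPM with vehicle, and EGR1, a zinc-finger factor, 1.27 CPM with the extract and 1.55 CPM with vehicle (adjusted p = 1 for both). Of 18 immediate-early and NR4A genes tested, 2 were lower and 16 did not pass, with a median log2 fold change of -0.05. Beyond those 2, JUND and KLF2 passed in the fit of the 6 libraries alone, and KLF2 also with the length covariate.

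H19, an imprinted long non-coding RNA of chromosome 11 (1995176 to 2001470), was at 60.8, 52.5 and 58.0 CPM with the extract and 86.3, 83.0 and 93.7 CPM with vehicle. LBH, a transcriptional cofactor linked to Wnt signalling, was at 160.3, 166 and 165 CPM with the extract and 215, 211 and 201 CPM with vehicle. The log2 fold changes were -0.62 ± 0.11 for H19 (edgeR, adjusted p = 0.00106) and -0.35 ± 0.05 for LBH (adjusted p = 0.000174), and both passed in all 15 alternatives. PDXK, the kinase that makes the active form of vitamin B6, averaged 302 CPM with the extract and 376 CPM with vehicle (log2 fold change -0.32 ± 0.05; edgeR, adjusted p = 0.000193). HEXIM1, an inhibitor of the elongation kinase P-TEFb, averaged 199.7 and 239.7 CPM in high-dose and vehicle libraries (log2 fold change -0.26 ± 0.04; adjusted p = 0.000193). Both kept their call without each single library and lost it only when no filter on low counts was applied (PDXK 0.0517, HEXIM1 0.219).

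The remaining lower genes include surface proteins and transcription factors. TM4SF4, a tetraspan membrane protein, was at 16.8, 16.6 and 15.4 CPM with the extract and 24.7, 22.2 and 26.8 CPM with vehicle (log2 fold change -0.59 ± 0.11; edgeR, adjusted p = 0.00697), and was lost without vehicle library 3 (0.0754) or high-dose library 3 (0.0982). GPRC5A, an orphan receptor induced by retinoic acid, was at 221, 228 and 224 CPM with the extract and 294, 288 and 277 CPM with vehicle (log2 fold change -0.35 ± 0.07; adjusted p = 0.00753). It was the lowest of 19 groups at the high dose, and 2 of the 18 extract groups had a mean above vehicle. Its adjusted p was 0.0503 to 0.0857 without vehicle library 1 or 2 or without high-dose library 1 or 3. MAFK, a small MAF protein that pairs with NRF2 and BACH factors, averaged 154 CPM with the extract and 188 CPM with vehicle (log2 fold change -0.29 ± 0.06; adjusted p = 0.0125), and was lost without vehicle library 1 (0.108) or 2 (0.0694) and high-dose library 1 (0.125) or 2 (0.0671). UPK3B, a uroplakin, averaged 4.11 CPM with the extract and 6.40 CPM with vehicle (log2 fold change -0.63 ± 0.13; adjusted p = 0.0208), and only leaving out vehicle library 2 kept the call among the single libraries (otherwise 0.0898 to 0.18).

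SLC2A3, the glucose transporter GLUT3, was at 25.1, 28.2 and 25.3 CPM with the extract and 32.0, 33.7 and 32.5 CPM with vehicle (log2 fold change -0.32 ± 0.07; edgeR, adjusted p = 0.0237). It was the 1 member of 25 glycolysis and hypoxia genes that passed, and it did not pass without any of the 3 vehicle libraries or without high-dose library 1 or 3 (0.0724 to 0.208). The housekeeping transporter SLC2A1 averaged 168 CPM with the extract and 185 CPM with vehicle (adjusted p = 0.618). ANKRD1, a target of the YAP coactivator, was at 9.96, 9.90 and 9.57 CPM with the extract and 12.8, 13.8 and 13.5 CPM with vehicle (log2 fold change -0.45 ± 0.10; edgeR, adjusted p = 0.0324). It was lost without any 1 of the 6 libraries (0.0907 to 0.258) and was the 1 of 18 TGF-beta and YAP targets that passed, while CCN2 averaged 30.6 CPM with the extract and 33.2 CPM with vehicle (adjusted p = 1). Of the other targets, TAGLN passed in the fit of the 6 libraries alone, and TAGLN and PMEPA1 with the length covariate.

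CD24, a small surface glycoprotein with near-identical copies in the genome, averaged 220.5 CPM with the extract and 261 CPM with vehicle (log2 fold change -0.24 ± 0.05; edgeR, adjusted p = 0.0299). MGLL, the lipase of monoacylglycerols, averaged 60.1 and 74.6 CPM in high-dose and vehicle libraries (log2 fold change -0.31 ± 0.07; adjusted p = 0.0243). ETS2, an ETS family transcription factor, averaged 58.2 CPM with the extract and 68.5 CPM with vehicle (log2 fold change -0.23 ± 0.05; adjusted p = 0.0252). GPR37, an orphan receptor, averaged 4.17 CPM with the extract and 5.88 CPM with vehicle (log2 fold change -0.49 ± 0.11; adjusted p = 0.0469). The transcript AP001972.5 averaged 2.20 CPM with the extract and 3.58 CPM with vehicle (log2 fold change -0.70 ± 0.14; adjusted p = 0.00959). Single libraries ended each of these calls. Without any 1 of the 6 libraries the adjusted p was 0.0576 to 0.348 for CD24 and 0.0552 to 0.337 for GPR37. For MGLL it was 0.143 without vehicle library 1, 0.153 without vehicle library 3, 0.074 without high-dose library 1 and 0.411 without high-dose library 2. For ETS2 it was 0.18 without vehicle library 1, 0.208 without vehicle library 2 and 0.0638 to 0.195 without any high-dose library. AP001972.5 was lost without vehicle library 3 (0.0837) and high-dose library 2 (0.107) or 3 (0.114).

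Most pathways that respond to stress or to growth arrest had no member past the threshold in the edgeR fit of all 57 libraries. In that fit 0.185% of all genes tested passed, so lists of this size would mostly hold no called gene whatever their function. The 789 genes with an unadjusted p under 0.05 are counted above, and DESeq2 called 55 genes in all. The unfolded protein response of the endoplasmic reticulum had 0 of 20, with positive fold changes in 18 and a median log2 fold change of 0.11. Its chaperone HSP90B1 averaged 928 CPM with the extract and 803 CPM with vehicle (log2 fold change 0.21 ± 0.05; adjusted p = 0.0516), and HSPA5, also called BiP, 712 CPM with the extract and 635 CPM with vehicle (adjusted p = 0.193). These calls depended on the fit: between 1 and 3 of the 20 genes passed in 7 of 15 alternatives. HSP90B1 passed in 6 of them, PDIA3, a disulphide isomerase, in 7, and HSPA5 in 2 (DESeq2, adjusted p = 0.00287; edgeR with the length covariate, adjusted p = 0.0113). The ATF4 and CHOP response had 0 of 26, with a median log2 fold change of 0.07, and DDIT3, which encodes CHOP, had a log2 fold change of 0.13 (adjusted p = 1). Oxidative stress genes under NRF2 had 0 of 24 (median -0.02), p53 targets 0 of 22 (median -0.03), and cytosolic heat shock genes 0 of 15 (median -0.06). Genes of replication and of mitosis had 0 of 24 each, with medians of -0.01 and -0.01, and TOP2A, a topoisomerase of dividing cells, had a log2 fold change of 0.03 (adjusted p = 1). HMOX1, the haem oxygenase induced by NRF2, had a log2 fold change of 0.08 (adjusted p = 1), CDKN1A, the cell cycle inhibitor p21, of -0.22 (adjusted p = 0.831; 0.0211 with the length covariate and 0.0364 in the fit of the 6 libraries alone), and MT2A, a metallothionein, of 0.01 (adjusted p = 1). TXNIP, an inhibitor of thioredoxin, was under 1 CPM on average in both groups and did not pass (log2 fold change -0.70; adjusted p = 1). Cholesterol synthesis had 0 of 24 with a median of 0.04. HMGCS1, an enzyme of the pathway, had a log2 fold change of -0.00 (adjusted p = 1). Nuclear genes of respiratory complex I had 0 of 20 past the threshold, a positive fold change in 1 and a median of -0.09. In the 15 alternatives at most 2 NRF2 targets passed, at most 1 gene each of the ATF4, p53 and replication lists, and none of the heat shock, mitosis, cholesterol and complex I lists.

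**Figure D3:**
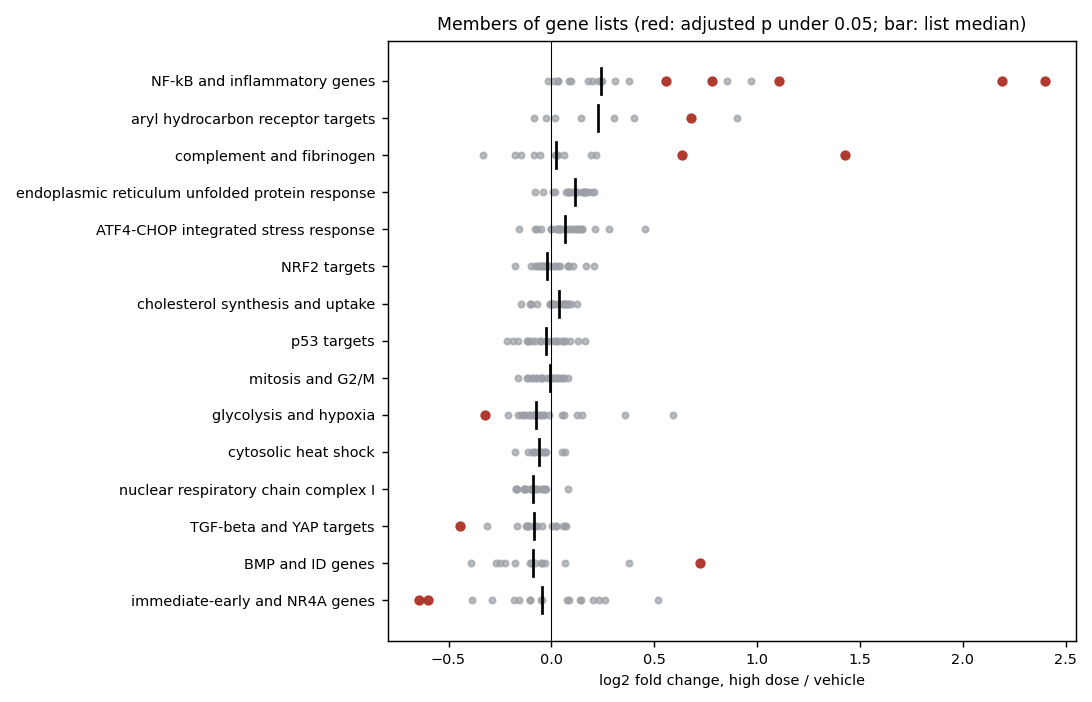
Log2 fold changes between high-dose and vehicle libraries (x axis) of the tested members of 15 gene lists (rows). Members past an adjusted p of 0.05 are red, other members grey, and the black bar is the list median; the list of NF-kB and inflammatory genes extends furthest to the right.

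The dose series gave the same genes at 2 lower concentrations. Neither lower dose had a gene past the threshold against vehicle in the edgeR fit of all 57 libraries. At 20 µg/mL the unadjusted p was under 0.05 for 598 genes, and DESeq2 called 6. There edgeR called 25 genes with the length covariate, 3 with no filter on low counts and 1 without vehicle library 3. At 100 µg/mL it was under 0.05 for 468 genes, and DESeq2 called 3. There edgeR called 17 genes in the fit of the 6 libraries alone, 2 with no filter and 1 without vehicle library 3. The unadjusted counts at both doses are smaller shares of all genes tested than the 0.05 that uniform p-values would give. All doses share the vehicle libraries, so the values are given side by side as a description. CXCL1 averaged 0.955 CPM in vehicle, 1.29 at 20, 2.04 at 100 and 4.97 at 500 µg/mL. CXCL8 averaged 1.03, 1.26, 1.70 and 4.72 CPM, and CXCL5 82.8, 88.1, 96.7 and 142 CPM, over vehicle and the same 3 doses. CYP1B1 averaged 53.9 CPM in vehicle, 56.9 at 20, 62.1 at 100 and 86.4 at 500 µg/mL. NR4A1 averaged 36.9 CPM in vehicle, 37.7 at 20, 32.4 at 100 and 24.3 at 500 µg/mL. These 5 genes moved mostly between 100 and 500 µg/mL.

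Over the 32 genes, the medium-dose mean lay between the high-dose and vehicle means for 31 and on the side of vehicle away from the high dose for 1, SLC2A3. The 32 genes were chosen for a gap between high-dose and vehicle means, so another mean can fall between them through that choice alone. The count was not taken over all genes. The median gene had 9.93% of its high-dose difference at the low dose and 33.4% at the medium dose. Those shares divide by the high-dose difference, which the choice of genes tends to enlarge. At the low dose, 30 genes had under 50% of that difference. The other 2 were AL157400.5, whose low-dose mean exceeded its high-dose mean, and SEMA4B (51.2%), and GPRC5A had 47.2%. CCL2 had 4.35% of its difference at the medium dose, with 6.76 CPM there, 6.58 CPM in vehicle and 10.8 CPM at the high dose. CFB had 66.7%, with 1.07 CPM at the medium dose.

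**Figure D4:**
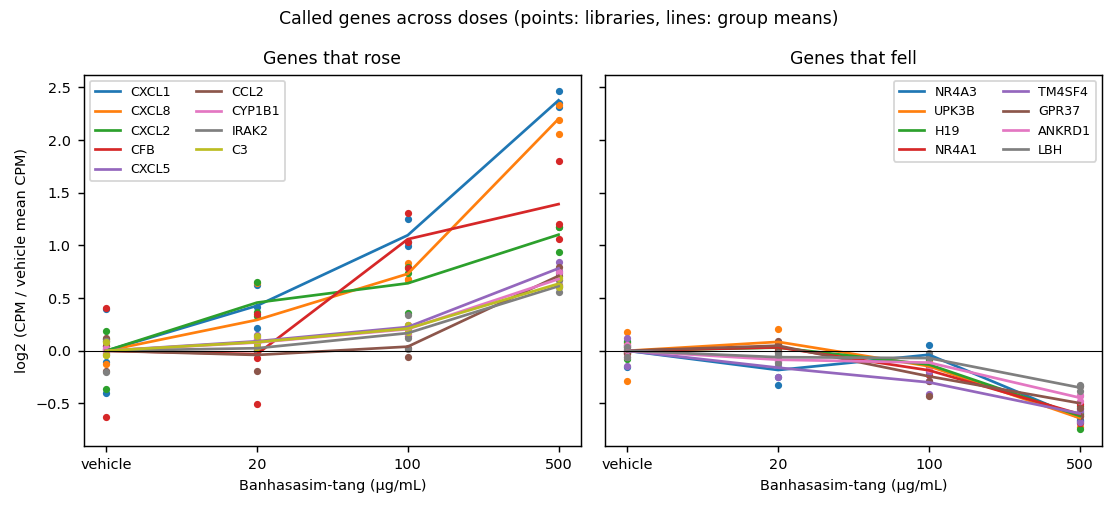
Log2 ratio of CPM to the vehicle mean (y axis) in vehicle and at 20, 100 and 500 µg/mL of Banhasasim-tang (x axis, evenly spaced) for 9 genes that rose and 8 that fell at the high dose; points are libraries and lines join group means. Most lines stay near 0 at 20 µg/mL, and CXCL1 and CXCL8 climb furthest.

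The high dose was then tested against the low dose within the one set of libraries. Of 17268 genes, 22 passed (0.127%), 10 higher (0.0579%) and 12 lower (0.0695%) at the high dose (edgeR). Of these, 17 had also passed against vehicle, all in the same direction, which is 77.3% of the 22 and 53.1% of the 32. Both comparisons use the high-dose libraries. The shared genes were CXCL5, CXCL8, CXCL1, CCL2, IRAK2, CYP1B1 and CFB among those higher, and NR4A1, H19, LBH, HEXIM1, UPK3B, SLC2A3, ETS2, CD24, GPR37 and AP001972.5 among those lower. CXCL5 was at 139.8, 149 and 138 CPM at the high dose and 83.2, 91.6 and 89.6 CPM at the low dose (log2 fold change 0.69 ± 0.05; adjusted p = 7.71e-13). CXCL8 was at 4.70, 4.27 and 5.19 CPM at the high dose and 1.11, 1.61 and 1.06 CPM at the low dose (log2 fold change 1.92 ± 0.21; adjusted p = 7.76e-08). NR4A1 was at 24.0, 23.0 and 26.0 CPM at the high dose and 37.4, 39.1 and 36.8 CPM at the low dose (log2 fold change -0.63 ± 0.07; adjusted p = 4.88e-07).

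Past the threshold against the low dose but not against vehicle were CXCL3, SOD2, ARRB1, IL11 and PRMT5-AS1. SOD2, the mitochondrial superoxide dismutase and an NF-kB target, was at 97.7, 100.1 and 96.2 CPM at the high dose and 80.5, 84.2 and 82.3 CPM at the low dose (log2 fold change 0.25 ± 0.05; edgeR, adjusted p = 0.00463). CXCL3 was at 2.89, 2.91 and 3.13 CPM at the high dose and 1.36, 1.70 and 1.64 CPM at the low dose (log2 fold change 0.93 ± 0.20; adjusted p = 0.0329). ARRB1, beta-arrestin 1, was at 6.56, 6.27 and 6.33 CPM at the high dose and 10.8, 8.97 and 8.62 CPM at the low dose (log2 fold change -0.57 ± 0.11; adjusted p = 0.0148). IL11, a cytokine of the interleukin-6 family, was at 24.4, 24.7 and 26.2 CPM at the high dose and 37.1, 29.3 and 32.2 CPM at the low dose (log2 fold change -0.39 ± 0.08; adjusted p = 0.0316). Low-dose library 1 stood apart, with 6.90% of counts from mitochondrial genes against 9.48% and 9.24% in the other low-dose libraries, and without it 10 genes passed. Without high-dose library 1, 2 or 3, the number was 9, 12 or 13, and without low-dose library 3 it was 12. Without low-dose library 1, SOD2 (adjusted p = 0.0577) and ARRB1 (0.312) lost the threshold. SOD2 lost it also without high-dose library 2 (0.0706), and ARRB1 without high-dose library 1 (0.0588), 2 (0.146) or 3 (0.0983). CXCL3 lost it without any 1 of the 6 libraries (0.0943 to 0.328), and IL11 (0.0703 to 0.614) without any 1 except low-dose library 2. CXCL5, CXCL8, CXCL1, NR4A1, H19 and CYP1B1 passed against the low dose in all 15 alternatives; the other 11 shared genes lost the threshold in at least 1.

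The response was also set beside that of Yijung-tang at the same dose and in the same set. Between the high doses of the mixtures 828 genes differed (4.79%; edgeR, adjusted p of 0.05), 379 higher (2.19%) and 449 lower (2.6%) with Banhasasim-tang. Of the 32 genes, 15 differed between the mixtures and 17 did not pass. The 32 genes were chosen with the same Banhasasim-tang libraries that enter this comparison. A p that misses the threshold does not show that the mixtures act alike. CXCL5 was at 139.8, 149 and 138 CPM with Banhasasim-tang and 134, 142 and 141 CPM with Yijung-tang (log2 fold change 0.03 ± 0.05; adjusted p = 0.772). CYP1B1 averaged 86.4 CPM with Banhasasim-tang and 79.2 CPM with Yijung-tang (log2 fold change 0.13 ± 0.10; adjusted p = 0.558), and IRAK2 13.2 CPM with Banhasasim-tang and 14.0 CPM with Yijung-tang (adjusted p = 0.66). CXCL8 averaged 4.72 CPM with Banhasasim-tang and 6.66 CPM with Yijung-tang (log2 fold change -0.50 ± 0.18; adjusted p = 0.0987).

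Its neighbour CXCL1 differed, with 5.27, 4.75 and 4.88 CPM with Banhasasim-tang and 1.84, 1.81 and 2.03 CPM with Yijung-tang (log2 fold change 1.39 ± 0.21; edgeR, adjusted p = 1.09e-05). C3 was at 47.8, 47.2 and 50.1 CPM with Banhasasim-tang and 20.5, 15.8 and 17.7 CPM with Yijung-tang (log2 fold change 1.43 ± 0.15; adjusted p = 1.13e-09), and vehicle lay between them at 31.1 CPM. NR4A1 was at 24.0, 23.0 and 26.0 CPM with Banhasasim-tang and 45.1, 46.6 and 45.1 CPM with Yijung-tang (log2 fold change -0.91 ± 0.07; adjusted p = 4.55e-12), again on either side of vehicle at 36.9 CPM. GREM1 had means above that of vehicle with either mixture, at 7.66 CPM with Banhasasim-tang and 17.0 CPM with Yijung-tang (log2 fold change between them -1.14 ± 0.11; adjusted p = 7.08e-10). Over the complement and fibrinogen list, 8 of 13 genes were higher and 2 lower with Banhasasim-tang than with Yijung-tang. Over the immediate-early and NR4A list, 0 of 18 were higher and 11 lower. The ERK feedback list, genes induced by and restraining the ERK kinase cascade, had 0 of 16 higher and 12 lower. For cholesterol synthesis, 9 of 24 were higher and 0 lower. Over all genes tested, 2.19% were higher and 2.6% lower with Banhasasim-tang. These lists are a selection from the 37, and the others varied. The ATF4 and CHOP list had 0 of 26 higher and 12 lower, and the mitosis list 0 of 24 higher and 0 lower.

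Other genes, outside the 32, were named for the size of their difference between the mixtures. EGR1 was at 1.24, 1.28 and 1.297 CPM with Banhasasim-tang and 5.03, 5.27 and 4.99 CPM with Yijung-tang (log2 fold change -1.999 ± 0.19; edgeR, adjusted p = 1.52e-10), with 1.55 CPM in vehicle. NT5E, the ectonucleotidase CD73, was at 31.2, 31.4 and 31.3 CPM with Banhasasim-tang and 73.5, 73.4 and 69.7 CPM with Yijung-tang (log2 fold change -1.21 ± 0.08; adjusted p = 1.22e-15), with 30.5 CPM in vehicle. KRT4, a keratin, was at 21.1, 18.3 and 23.2 CPM with Banhasasim-tang and 8.22, 7.80 and 6.42 CPM with Yijung-tang (log2 fold change 1.47 ± 0.14; adjusted p = 3.02e-10), with 27.4 CPM in vehicle. The other genes named by the same rule were ANKS4B, SLC23A1 and ARRB1, with log2 fold changes of 1.35, 1.18 and 1.02, and LY6K, CDCP1 and MARCHF4, with -2.04, -1.20 and -1.16. Yijung-tang library 2 stood apart in transcript length balance, and without it 459 genes passed; without Banhasasim-tang library 2, 509 passed.

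**Figure D5:**
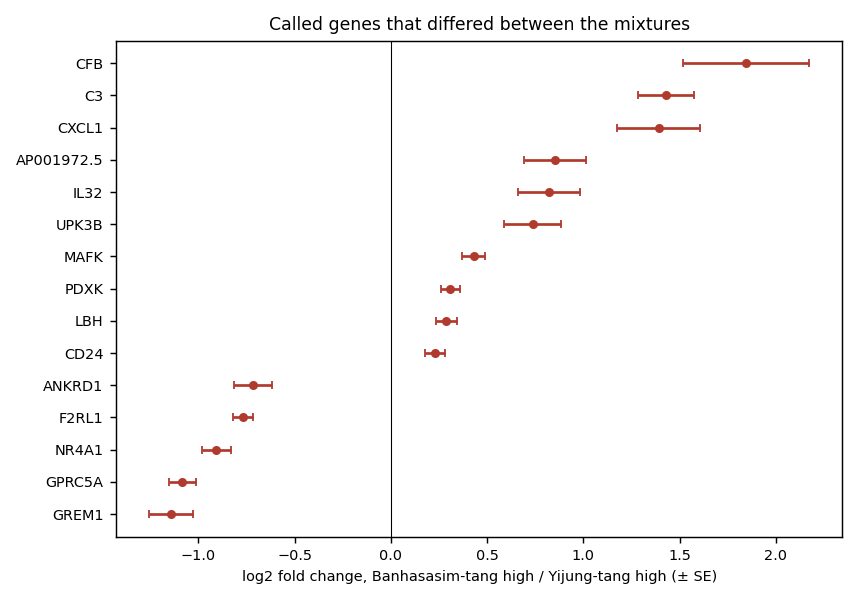
Log2 fold change of Banhasasim-tang over Yijung-tang, both at 500 µg/mL (x axis, ± SE, 3 libraries each), for the 15 of 32 genes that differed between them (rows). CFB, C3 and CXCL1 lie furthest to the right and GREM1 and GPRC5A furthest to the left.

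Among the 19 groups of 3 libraries, which cover 4 single-herb extracts, both mixtures and vehicle, Banhasasim-tang at the high dose had the highest mean of CXCL1, CCL2, C3, CFB, TNFAIP3 and SOD2, as a description with no test. CXCL5 was at place 3 with 142 CPM, and the highest mean was 212.5 ± 8.73 CPM (SD, n = 3) with the high dose of the Aconiti extract. The high dose of Aconiti was 360 µg/mL, not the 500 µg/mL of Banhasasim-tang. CXCL8 was at place 4 with 4.72 CPM, against 7.12 ± 0.92 CPM with the same extract. CYP1B1 was at place 7 with 86.4 CPM, against 139 ± 4.80 CPM with the high dose of the Cimicifugae extract. NR4A1 was at place 17 with 24.3 CPM, and the lowest mean was 15.0 CPM with the high dose of Cimicifugae. Neighbours in these orders were not tested against each other. Of the 18 extract groups, 17 had a CYP1B1 mean above vehicle and 14 a CXCL8 mean above it. Those above vehicle numbered 1 for NR4A3, 2 for TM4SF4 and 3 for LBH. They numbered 7 for NR4A1, 6 for H19, 8 for CXCL5 and 8 for C3. Whether an unusual vehicle set lies behind any call was not tested.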

How the data were processed

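RNA was sequenced from A549 cells as 100 bp paired-end reads of directional mRNA libraries, per the labels' protocols. The authors deposited RSEM expected counts per gene. Reads were trimmed with Trim Galore 0.6.5, aligned with STAR 2.7.3a to GRCh38 and counted with RSEM 1.3.3, per the submitters' processing notes; the annotation release and strand setting are not given in the sources used here, so reads of overlapping and antisense genes may be shared. Of 269 library columns, 209 belong to other experiments and were not used. Gene types and coordinates came from GENCODE 29, which holds 57055 of the 60675 gene identifiers. Symbols came from a separate list of gene names, with the GENCODE 29 name used where that list gave none.

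Expected counts were rounded and scaled by TMM, and 17268 genes passed filterByExpr. A single quasi-likelihood model in edgeR 4.0.16 (R 4.3.3) covered 19 groups, 57 libraries in all, with a common estimate of spread (38 residual degrees of freedom, biological coefficient of variation 10.1%); 3 libraries of groups without replicates were left out. P-values were adjusted over all genes by Benjamini and Hochberg, with a threshold of 0.05. Fold changes are high dose over vehicle, high over low dose, and Banhasasim-tang over Yijung-tang. The SE is the log2 fold change divided by the root of F. CPM are TMM-scaled without a prior count. With 3 libraries per group an exact permutation test of 1 gene cannot go below p = 0.1.

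On simulated counts for the comparison of the high dose with vehicle (17102 genes), 70 of 99 genes changed by 1.5-fold and 93 of 101 changed by 2-fold were recovered, with 10 false calls in all. The changed genes were drawn only from those averaging above 1 CPM. The simulation held no shift common to a whole library, such as one in transcript length balance, so recovery in the real data may be lower. No replicate pair of either group agreed within sampling noise. The gene lists and comparisons were chosen with earlier results of these data known. Genes were named by a rule: the 10 largest changes in each direction that passed, with a mean of 5 CPM or more in the higher group and no overlap, up to 4 called members of each of 37 lists, and a panel of 15 genes, of which 1 is not reported here; for the comparisons with the low dose and with Yijung-tang, 5 each way. The other called genes, the members just outside the threshold and list members that did not pass were added after their values were seen. Alternatives were DESeq2 1.42.0, RLE scaling, no low-count filter, a replicate block, a robust fit, a transcript length covariate, other sets of libraries and leaving out each library.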

Additional observations from a re-analysis of the deposited data

Results flagged for a closer look

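Genes that changed against vehicle at the high dose of Banhasasim-tang and differed from the high dose of Yijung-tang are listed because the test of the difference between the mixtures passed an adjusted p of 0.05 (edgeR; 15 of 32 genes, against 4.79% of all genes tested). The 32 genes were chosen with the high-dose Banhasasim-tang libraries that also enter this test, so the shares are not an independent comparison. Both mixtures are placed against the same vehicle libraries, which do not enter the test between them. The values are log2 fold changes of Banhasasim-tang over Yijung-tang.

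For 5 genes the mixtures lay on opposite sides of the vehicle mean. Higher with Banhasasim-tang were CFB by 1.845 and C3 by 1.428. Lower with Banhasasim-tang were NR4A1 at -0.906, GPRC5A at -1.084 and ANKRD1 at -0.718.

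For the other 10 genes both mixtures lay on the same side of vehicle. CXCL1 was higher with Banhasasim-tang by 1.392 and IL32 by 0.821. GREM1 (-1.141) and F2RL1 (-0.77) were lower with Banhasasim-tang than with Yijung-tang. The remaining 6 genes were lower than vehicle with both mixtures, and higher with Banhasasim-tang than with Yijung-tang. They were AP001972.5 at 0.853, UPK3B at 0.736, MAFK at 0.43, PDXK at 0.31, LBH at 0.288 and CD24 at 0.23. Of the 15 differences, 13 kept the threshold in all 15 alternatives. AP001972.5 lost it in the fit of the 6 libraries alone (adjusted p = 0.0598), and CD24 there (0.0863) and with no filter on low counts (0.0529).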

How the results depend on the processing

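No call against vehicle changed direction in any of 15 alternatives. Of the 32 genes, 9 passed in all of them (CXCL5, CXCL8, CXCL1, IRAK2, CYP1B1, GREM1, NR4A1, H19 and LBH), and the other 23 lost the threshold in at least 1. RLE scaling, the robust fit, the length covariate, removal of mitochondrial genes and the fit without Citri medium library 1 each kept all 32, DESeq2 and the fit of the 6 libraries alone kept 31, no filter on low counts kept 15, and leaving out 1 library kept 15 to 22.

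The number of genes past the threshold moved more. For the high dose against vehicle (32) it was 17 with no filter, 188 with the length covariate, 55 without Citri medium library 1, 144 in the fit of the 6 libraries alone, 55 in DESeq2 and 15 to 25 with 1 library left out. For the medium dose (0) it was 2 with no filter, 17 in the fit of 6, 3 in DESeq2 and 0 to 1 with 1 library left out. For the low dose (0) it was 3 with no filter, 25 with the length covariate, 6 in DESeq2 and 0 to 1 with 1 library left out. The high against the low dose (22) gave 9 with no filter, 92 with the length covariate, 34 without Citri medium library 1, 7 in the fit of 6, 38 in DESeq2 and 9 to 15 with 1 library left out. The high doses of the mixtures (828) gave 485 with no filter, 1851 with the length covariate, 354 in the fit of 6 and 459 to 1037 with 1 library left out. The cause was not tested.

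The deviations of same-numbered high-dose and vehicle libraries correlated at 0.052, 0.046 and 0.065, each the highest for its number but under 0.1. The part of counting noise in these deviations was not estimated, so the values do not decide whether replicate numbers pair the libraries. With the replicate number as a block 32 genes passed against vehicle, 31 of them as before, 22 against the low dose and 833 against Yijung-tang; GPR37 lost the threshold (adjusted p = 0.0574). Genes near 1 CPM, such as CYP1A1 and CFB, rest on few counts per library, and small changes there were not detectable at this depth.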
